A study of Mus musculus with 16 samples.

Results

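Among the CpGs of a LINE1 bisulfite amplicon in mouse embryonic stem cells, 971 sites of 10185 tested sites sat at the 2 amplicon positions where methylation was lowest in cells without Uhrf1. The members were chosen by that low level in the Uhrf1 knockout libraries, so the knockout values are given here as a description, with no test. In practice they were found by position. Neighbouring CpGs on 1 strand, each at most 200 bp from the next, formed a run, which stands for 1 LINE1 copy in the genome. Runs were kept when they measured exactly 144 bp from the first base of their first CpG to the last base of their last CpG. There were 516 such runs among 753, with 6324 tested sites. The CpG that opens each run is called offset 0 and the CpG 26 bp further along the amplicon is called offset 26. All 516 runs held offset 0, 455 held offset 26, and 5353 sites at other offsets of the same runs served for comparison. In the 61 runs without an offset 26 site, no library listed a CpG at that position.

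The 16 libraries came from mouse embryonic stem cells of the J1 line (129S4/SvJae) with 4 genotypes, with 4 libraries each: wild type (wtJ1), a Uhrf1 knockout (Uhrf1 KO), and cells whose Uhrf1 carries the H730A or the F46A substitution. All were cultured in serum with LIF and the 2 inhibitors known as 2i, a medium in which embryonic stem cells are known to carry less DNA methylation than in serum without the inhibitors. The submitters call the libraries biological replicates, but the sources used here do not say whether a genotype was 1 clone or several, so the p-values measure the spread between these libraries. The amplicon holds no part of Uhrf1, and the genotypes were therefore taken from the labels.

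UHRF1 recognises hemimethylated CpGs behind the replication fork, and through its RING domain it attaches ubiquitin to histone H3, a mark that recruits the maintenance methyltransferase DNMT1. H730A lies in the RING domain, the catalytic part, and F46A lies in the ubiquitin-like (UBL) domain at the other end of the protein. LINE1 elements are retrotransposons with a CpG-rich promoter that DNA methylation helps to silence, and their many near-identical copies make 1 amplicon a readout of many loci.

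To show what surrounds the 2 CpGs, the sequence of 1 LINE1 copy is printed here in full, read from RefSeq promoter sequences on GRCm38.p6, the assembly behind mm10. It lies at chr12:77553483-77553642 on the minus strand, ahead of the annotated start of the lncRNA gene Gm35240, and it is written 5′ to 3′ with the CpGs at offsets 0 and 26 in capitals.
Copy ahead of Gm35240: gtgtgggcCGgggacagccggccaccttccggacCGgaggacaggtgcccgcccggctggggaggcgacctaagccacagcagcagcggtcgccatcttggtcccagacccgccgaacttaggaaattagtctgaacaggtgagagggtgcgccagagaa

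This copy holds 12 CpGs, which match 11 of the 12 offsets present in at least 400 of the runs, and all 12 listed sites in it fall on the C of a CpG. It is not itself among the members, because only 1 to 9 calls per library covered its CpGs, and it serves to show the layout. For comparison, 18 bases around each of 4 CpGs are set out below, with the CpG in capitals. Offsets 41 and 82 are shown because both kept more methylation in Uhrf1 KO.
Offset 0: gtgtgggcCGgggacagc
Offset 26: ttccggacCGgaggacag
Offset 41: caggtgccCGcccggctg
Offset 82: gcagcggtCGccatcttg

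In this copy offsets 0 and 26 both lay within CCGG, searched on the printed strand, where the palindrome reads the same on the other strand. The same 4 letters also held offsets 10, 21 and 45, so 5 of 12 CpGs shared that context. Over the kept runs offset 45 retained 40.5% of the wtJ1 level in Uhrf1 KO and ranked 1st of 14 offsets. In this copy CCGG was therefore not particular to the CpGs with the lowest Uhrf1 KO level. The neighbours of the 2 CpGs differed: over all kept runs the next offset used after 0 was 10 bp away, while offset 26 lay 5 bp from offset 21 and 15 bp from offset 41. A CpG at offset 10 was present in 156 of the 516 runs.

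Each library held between 998982 and 1287040 calls over the 49722 sites listed in any library, and 90608 to 114304 calls fell on the members. Of the calls at the tested sites alone, 9.85% fell on the members. A call is 1 read position scored as C (methylated) or T (unmethylated). The median member site had 61 to 77 calls in a library. Coverage was uneven: the 10 deepest runs held 11.3% and the 100 deepest runs 54.3% of the member calls. Replicates 1 and 2 of wtJ1, and replicates 2 and 3 of Uhrf1 KO, did not differ beyond sampling noise at 0.05 in any of 4 chi-square comparisons of their calls, with the lowest p at 0.0528 and 0.0632. In each genotype every other pair differed in at least 1 of the 4, and in these comparisons a high p does not show that 2 libraries are the same. Each of the close pairs was averaged and counted as 1 sample in the means, SDs and n, whereas the tests of wtJ1 entered all 4 libraries as planned. The averaging of the Uhrf1 KO pair was chosen after the data were seen, and because its libraries lie at opposite ends of the group at the members, the SD of Uhrf1 KO over n = 3 understates the spread of the 4 libraries. Reads came from PCR without molecular identifiers, so counting error understates the true error. The files list CpGs alone, so the share of C calls left by incomplete conversion could not be measured, which limits how a level near 1% can be read.

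At offset 0 methylation was highest in wtJ1, lower in H730A, lower again in F46A and near 1% in Uhrf1 KO. The level of a library is its methylated calls over all its calls at that offset, in percent. In wtJ1 it was 23.0, 22.5, 23.9 and 23.4% in replicates 1 to 4. In Uhrf1 KO it was 1.04, 1.02, 1.16 and 1.11%. The 4 H730A libraries read 7.67, 7.64, 7.65 and 6.77%, and the 4 F46A libraries 2.37, 3.75, 1.51 and 2.91%. No 2 genotypes overlapped, and F46A was the genotype whose libraries lay farthest apart relative to their level. The means were 23.4% ± 0.577 (SD, n = 3) in wtJ1, 1.08% ± 0.0355 (SD, n = 3; 0.0641 over the 4 libraries) in Uhrf1 KO, 7.43% ± 0.441 (SD, n = 4) in H730A and 2.63% ± 0.940 (SD, n = 4) in F46A. H730A thus kept 31.8% and F46A 11.3% of the wtJ1 level at this CpG.

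Offset 0 fell by 15.8 percentage points in H730A against wtJ1 (95% interval -17.2 to -14.9) and by 20.6 points in F46A (-22.4 to -18.8). F46A was 4.80 points below H730A (-6.16 to -3.03). Each difference had an exact two-sided permutation p of 0.0286 and the same value after Benjamini-Hochberg adjustment over 6 level tests, which is the smallest p that 4 against 4 libraries can give. With wtJ1 replicates 1 and 2 counted as 1 sample the differences from wtJ1 were -15.9 and -20.7 points, and p was 0.0571, the smallest that 3 against 4 allows.

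Offset 26 kept the same order of genotypes from a lower start. The wtJ1 libraries read 16.9, 17.0, 17.6 and 17.3%, and the Uhrf1 KO libraries 0.931, 0.892, 0.960 and 0.933%. In H730A the level was 6.20, 6.29, 6.22 and 5.34%, and in F46A 2.76, 4.06, 1.65 and 3.50%. Again the genotypes did not overlap. The means were 17.3% ± 0.308 (SD, n = 3) in wtJ1, 0.930% ± 0.00357 (SD, n = 3; 0.0282 over the 4 libraries) in Uhrf1 KO, 6.01% ± 0.448 (SD, n = 4) in H730A and 2.99% ± 1.04 (SD, n = 4) in F46A. H730A therefore stood at 34.8% and F46A at 17.3% of wtJ1.

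The fall at offset 26 was 11.2 points in H730A (95% interval -12.2 to -10.6) and 14.2 points in F46A (-15.9 to -12.9) against wtJ1. F46A lay 3.02 points below H730A (-4.64 to -1.28). All 3 had an exact permutation p of 0.0286, also after adjustment. With the 2 close wtJ1 libraries as 1 sample the differences from wtJ1 were -11.3 and -14.3 points, at an exact permutation p of 0.0571.

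**Figure D1:**
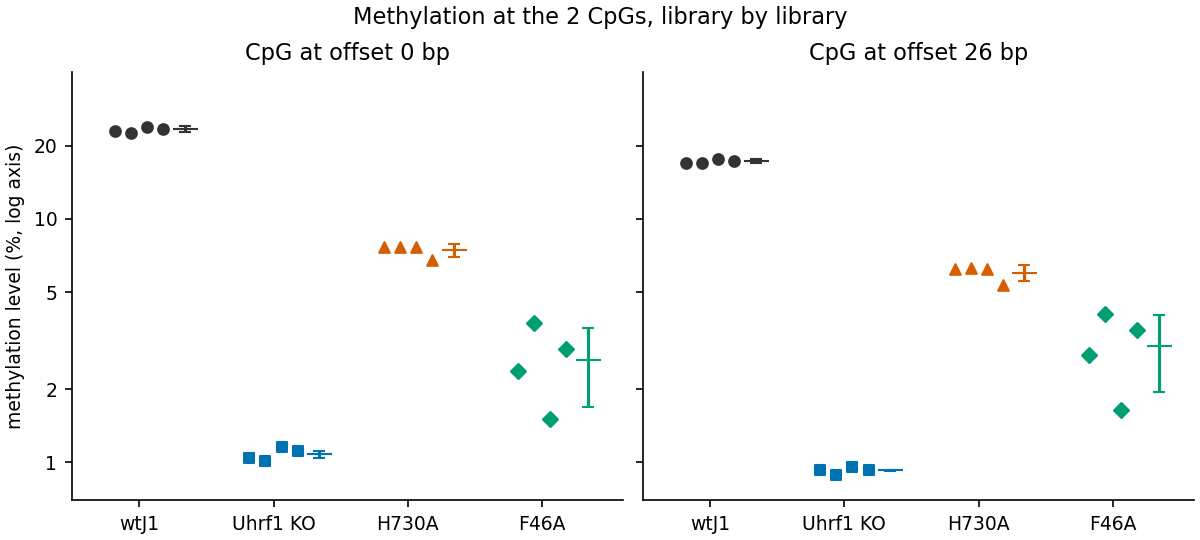
Methylation level in percent, on a log axis, of each library (points) at offset 0 (left) and offset 26 (right), with the mean and SD of each genotype as a bar, over n = 3 samples in wtJ1 and Uhrf1 KO, where 2 libraries were averaged, and n = 4 in H730A and F46A. The 4 genotypes separate at both CpGs, with F46A between 1.51 and 4.06% and H730A between 5.34 and 7.67%.

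Set beside the knockout, as a description of the values that chose the CpGs, H730A was 6.89-fold higher at offset 0 and 6.47-fold higher at offset 26. F46A was 2.44-fold and 3.22-fold higher. In points, H730A exceeded Uhrf1 KO by 6.36 and 5.08, and F46A by 1.55 and 2.06. Pooled over the other CpGs of the same runs, the mutants and the knockout lay much closer together: the pooled level there was 26.8% ± 0.379 (SD, n = 3) in wtJ1, 5.76% ± 0.0804 (SD, n = 3) in Uhrf1 KO, 7.88% ± 1.00 (SD, n = 4) in H730A and 6.0% ± 1.05 (SD, n = 4) in F46A. This pool joins offsets that differ in direction. At offset 105 H730A exceeded Uhrf1 KO by 11.3 points and F46A by 4.28, more than at the members. At offset 82 the differences from Uhrf1 KO were -2.51 points in H730A and -1.98 in F46A. The gap is therefore not particular to offsets 0 and 26. The plot along the amplicon shows the single offsets. In Uhrf1 KO, 12 other offsets ranged from 2.06% at offset 78 to 12% at offset 82, whereas offsets 0 and 26 took the last 2 places of 14, which is how they were chosen.

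In H730A the 2 CpGs were not at the low end of the profile. Ranked by the percent of wtJ1 retained, offset 26 was 3rd and offset 0 was 6th of 14 offsets in H730A, behind offset 105 with 43.2%. The lowest of the 14 in H730A was the last CpG of the run, with 17.3% of wtJ1. In F46A offset 0 was 13th, at 11.3%, with the last CpG below it at 9.68%, and offset 26 was 10th. These ranks are a description over neighbouring CpGs read in the same molecules. The wtJ1 levels did not single the 2 CpGs out in the same way, since offset 17 was lowest in wtJ1 with 10.7% and offset 26 was 13th and offset 0 9th by level.

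**Figure D2:**
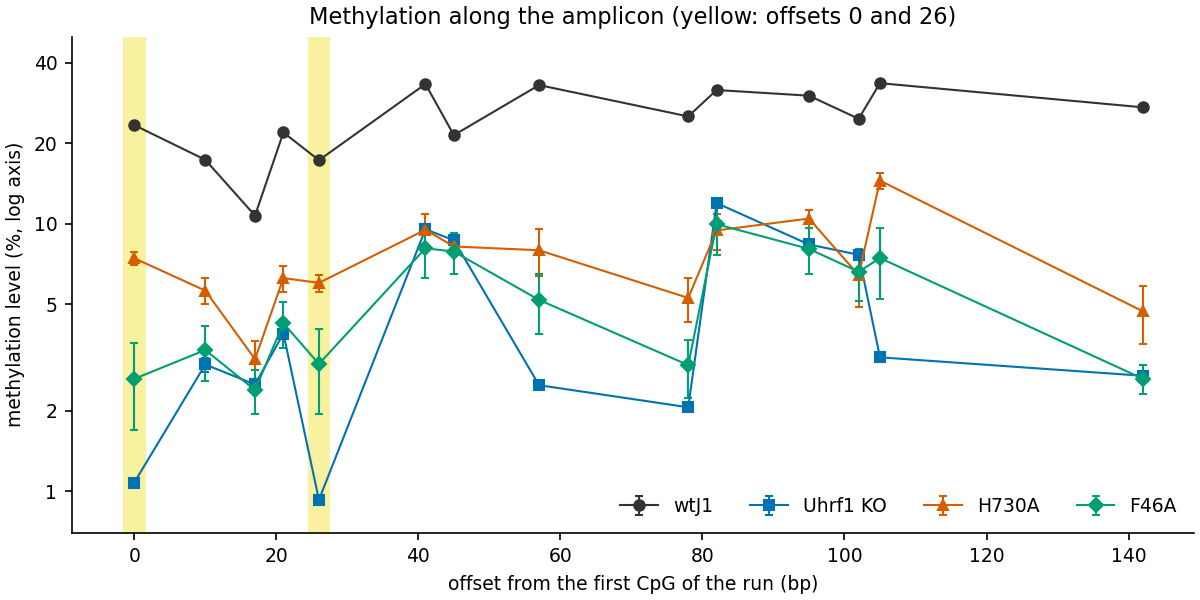
Mean methylation level in percent, on a log axis, at the 14 offsets present in at least 100 runs, against distance from the first CpG in bp, with SD bars over n = 3 (wtJ1, Uhrf1 KO) or n = 4 samples (H730A, F46A). At the shaded offsets 0 and 26 Uhrf1 KO dips to 1.08 and 0.930%, while H730A stays at 7.43 and 6.01%.

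To ask whether the mutants changed these CpGs more or less than the rest of the amplicon, the member level of each library was divided by the level at the other CpGs of the same runs. This ratio was 0.758, 0.755, 0.771 and 0.756 in wtJ1 and 0.173, 0.165, 0.180 and 0.179 in Uhrf1 KO. It was 0.916, 0.889, 0.752 and 0.886 in H730A and 0.407, 0.701, 0.327 and 0.440 in F46A. H730A overlapped wtJ1 through replicate 3 alone, and F46A lay below both, with replicate 2 nearest to them.

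On the log2 scale the ratio was 0.18 higher in H730A than in wtJ1, with a 95% interval from -0.04 to 0.28, and the exact two-sided permutation test did not pass (p = 0.143, adjusted over 3 tests 0.143). As a difference of log2 odds, a scale added after the data were seen, the same comparison was 0.28 with an exact permutation p of 0.0286, higher in 4 of 4 H730A libraries. In F46A the ratio was 0.76 lower than in wtJ1 (-1.24 to -0.11) and 0.93 lower than in H730A (-1.49 to -0.10), and it was lower in 4 of 4 libraries. The exact two-sided permutation test gave p = 0.0286 for each, or 0.0429 once adjusted over the 3 tests. With wtJ1 replicates 1 and 2 as 1 sample the F46A difference from wtJ1 was again -0.76, at an exact permutation p of 0.0571.

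Offset 0 carried more of the F46A difference than offset 26. Taken alone, offset 0 against the other CpGs differed by -1.05 from wtJ1 and by -1.17 from H730A on the log2 scale, with an exact permutation p of 0.0286 for both. Offset 26 alone gave -0.43 and -0.68, which did not pass the exact permutation test (p = 0.143 and 0.0571). Both of these splits were added after the data were seen.

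H730A replicate 3 and F46A replicate 2 lay farthest from the rest of their genotypes in this ratio, though neither is among the values flagged further below. In both, the members and the other CpGs of the runs did not move together. H730A replicate 3 had 9.24% at the other CpGs, against 6.85 to 7.84% in the other H730A libraries, yet 6.95% at the members, beside 6.94 and 6.98% in replicates 1 and 2. F46A replicate 2 had the highest member level of its genotype, 3.90%, but 5.57% at the other CpGs, below the 6.30 and 7.29% of replicates 1 and 4. Without F46A replicate 2 the log2 difference from wtJ1 was -0.97 and without F46A replicate 3 it was -0.60.

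The relation between the 2 CpGs also differed by genotype. Offset 26 divided by offset 0 was 0.734, 0.755, 0.734 and 0.739 in wtJ1, and 0.895, 0.877, 0.830 and 0.840 in Uhrf1 KO. It was 0.808, 0.823, 0.813 and 0.789 in H730A, and 1.17, 1.08, 1.09 and 1.20 in F46A. Offset 26 was thus the lower of the pair in every library of the other 3 genotypes and the higher of the pair in all 4 F46A libraries.

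The log2 ratio was 0.13 higher in H730A than in wtJ1 (95% interval 0.06 to 0.16), 0.62 higher in F46A than in wtJ1 (0.52 to 0.71) and 0.49 higher in F46A than in H730A (0.40 to 0.61). All 3 reached 0.0286 in the exact two-sided permutation test, before and after adjustment over the 3, with no overlap between the libraries compared. Counting wtJ1 replicates 1 and 2 once left differences from wtJ1 of 0.13 and 0.62, at an exact permutation p of 0.0571.

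**Figure D3:**
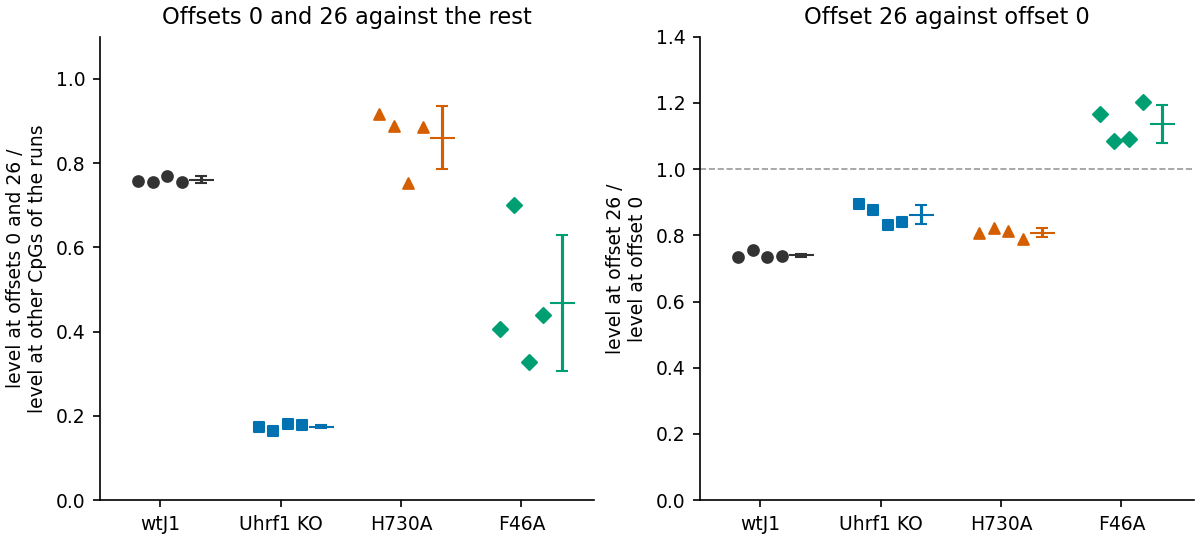
Per library, the level at offsets 0 and 26 divided by the level at other CpGs of the runs (left) and the level at offset 26 divided by that at offset 0 (right), with mean and SD bars. The dashed line marks equal levels: the F46A libraries lie above it at 1.08 to 1.20, and the other genotypes below it.

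The low knockout level was shared by nearly all LINE1 copies. With the calls of the 4 libraries summed, the median offset 0 site had 1.05% in Uhrf1 KO, with 0.321% at the 10th and 2.09% at the 90th percentile of sites, against 23.2% (16.5 to 31.4%) in wtJ1. For offset 26 the median was 0.923% in Uhrf1 KO (0.264 to 1.66%) and 17.0% in wtJ1 (11.5 to 25.0%). In Uhrf1 KO 0.822% of the other sites of the same runs had no methylated call. Among the members, 47 of 516 offset 0 sites (9.11%) and 41 of 455 offset 26 sites (9.01%) had none. Those sites had median depths of 152 and 162 calls, at which a count of 0 allows up to 1.97 and 1.85%. Only 1 member exceeded 5% in Uhrf1 KO, chr7:52769599 at offset 0, with 5 of 70 calls, a site named after its value was seen. Of the other sites of the same runs, 46.9% exceeded 5% in Uhrf1 KO.

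In H730A methylation was present at most copies. The median was 7.37% at offset 0 (4.44 to 11.7% between the same percentiles) and 5.78% at offset 26 (3.06 to 9.70%). Offset 0 exceeded 5% at 436 of 516 sites (84.5%) and offset 26 at 305 of 455 (67.0%). Among the other sites of the same runs the share in H730A was 74.5%, below that of offset 0 and above that of offset 26. Methylation at most copies was therefore not particular to the members. No offset 0 site and 1 offset 26 site had no methylated call in H730A. The latter, chr13:4982522, had 114 calls, which allows up to 2.63%. Of the other sites of the same runs, 0.392% had no methylated call in H730A.

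F46A sat between the knockout and H730A. Its medians were 2.58% (1.21 to 4.23%) and 2.88% (1.37 to 4.82%), and 22 of 516 (4.26%) and 38 of 455 sites (8.35%) exceeded 5%. At the other sites of the same runs that share was 57.8% in F46A. Site by site, F46A was below H730A at 506 of 516 offset 0 sites and at 418 of 455 offset 26 sites, and above Uhrf1 KO at 460 and 433. H730A was below wtJ1 at 515 of 516 and 455 of 455 sites. The exception at offset 0, chrX:110417137, had 7 of 82 calls methylated in H730A and 6 of 81 in wtJ1. Such counts were not made over other sites, so they do not set the members apart. In the tests given further below, 91.4% of all tested sites were called lower in H730A than in wtJ1. The counts against Uhrf1 KO rest on the values that chose the members.

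**Figure D4:**
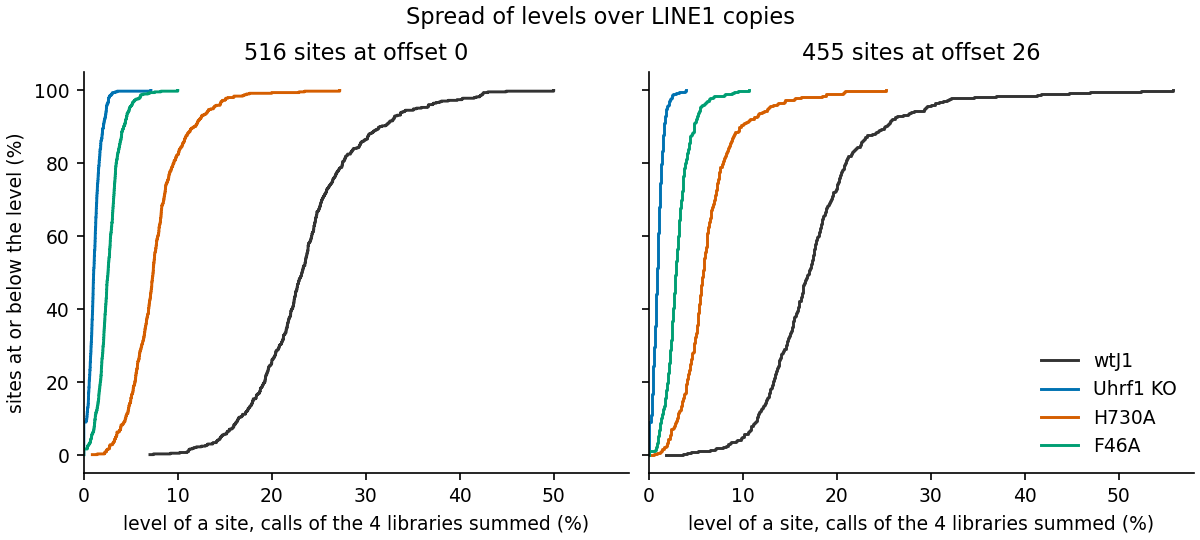
Cumulative share of member sites, in percent, at or below a methylation level in percent, for the 516 sites at offset 0 (left) and the 455 at offset 26 (right), calls of the 4 libraries of a genotype summed. The median lies near 1% in Uhrf1 KO, between 2.58 and 2.88% in F46A, and between 5.78 and 7.37% in H730A.

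Copies that were high at offset 0 were also high at offset 26 in wtJ1 and H730A, and less so in F46A and Uhrf1 KO, with no test of the difference. Across the 455 runs with both CpGs, Pearson's r between the 2 levels was 0.771 in wtJ1 (Spearman's rho 0.693), 0.679 in H730A (0.557), 0.186 in F46A (0.167) and 0.0114 in Uhrf1 KO (0.0460). These are descriptions across runs, whose 2 values share reads and depth, and runs are not replicates. The levels of Uhrf1 KO and F46A rest on fewer methylated calls per site, because the levels are low at similar depth: the median offset 0 site had 290 calls in Uhrf1 KO and 262 in F46A, beside 272 in wtJ1 and 263 in H730A. Offset 26 was the lower of the 2 at 419 of 455 runs in wtJ1, 346 in H730A and 298 in Uhrf1 KO, but at 185 in F46A, where it was the higher at 269.

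Site by site, each member was tested in a quasi-binomial model fitted over all 10185 tested sites, with a call at a Benjamini-Hochberg adjusted p under 0.05. Against wtJ1, 888 of 971 members (91.5%) were lower in H730A, where 91.4% of all tested sites were called lower, and 0 were higher, where 0.0196% of all were. That share is the background's own. In F46A 958 members were lower (98.7%) against 94.5% of all sites, and again 0 were higher (0.0196% of all). No member had an unadjusted p under 0.05 in the higher direction in either comparison, and neither limma on logit values nor Fisher's exact test called one higher. The median difference over members was -13.5 points in H730A and -17.7 in F46A, where over all tested sites it was -17.5 and -19.7.

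Between the mutants 82 members (8.44%) were lower in F46A than in H730A, against 2.39% of all tested sites, and 0 were higher, against 0.00982%. The median difference over members was -3.92 points, and over all sites it was -1.88. At an unadjusted p under 0.05, 476 members were lower (49.0%, against 19.0% of all sites) and 0 higher (against 0.687%). The 82 called members were deep sites, with a median of 240 calls in their shallowest library against 48 for the rest. They divided into 66 at offset 0 (12.8% of its sites) and 16 at offset 26 (3.52%). This count moved with the method: it was 0 by limma on logit values, against 0.0196% of all sites, with 515 at an unadjusted p under 0.05 (53.0%, against 19.4%). Fisher's exact test of each genotype's summed calls, which holds no spread between libraries, called 356 (36.7%, against 13.5% of all sites), and 1 fit of all 16 libraries called 214 (22.0%, against 6.86%). Leaving out F46A replicate 2 left 54 calls (5.56%, against 1.35% of all sites). Leaving out any other single library left between 0 and 9 (0 to 0.927%, against 0 to 0.353% of all).

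The deepest runs give the pattern at single copies with the least counting error. LINE1 copies are near-identical and the sources used here do not say where reads fitting several of them were put, so it is uncertain that a value belongs to the copy or host gene it is listed under. The copy at chr2:42083590-42083732 on the plus strand lies within the span of Lrp1b, a large gene for a lipoprotein receptor family member. At its offset 0, chr2:42083590, with 448 to 633 calls per library, the level was 27% ± 0.296 (SD, n = 3) in wtJ1, 1.11% ± 0.405 (SD, n = 3) in Uhrf1 KO, 8.99% ± 0.929 (SD, n = 4) in H730A and 2.99% ± 1.93 (SD, n = 4) in F46A. The H730A fall of 18 points had an adjusted p of 2.54e-07, the F46A fall of 23.9 points 1.26e-07, and the difference between the mutants of 5.87 points (-5.87 for F46A minus H730A) 0.0318. Here and below, tested differences at single sites come from calls summed per genotype. They can therefore depart from the difference between the printed means, which are taken over libraries.

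Offset 26 of the same copy, chr2:42083616, had 1751 to 2342 calls per library, 3.67 times as many as offset 0 over all libraries. That ratio was the highest of the 455 runs, whose median was 1.02, and 7 runs were above 1.5. The level there was 16.4% ± 0.303 (SD, n = 3) in wtJ1, 0.832% ± 0.174 (SD, n = 3) in Uhrf1 KO, 6.21% ± 0.395 (SD, n = 4) in H730A and 3.12% ± 1.14 (SD, n = 4) in F46A. Although read from a far larger set of reads, this CpG lay close to the pooled offset 26 level in each genotype.

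The next 4 deepest runs repeated the pattern. At chr1:18538024 (offset 0, in no annotated gene) the level was 27.7% ± 1.05 (SD, n = 3) in wtJ1, 1.24% ± 0.166 (SD, n = 3) in Uhrf1 KO, 9.77% ± 2.19 (SD, n = 4) in H730A and 3.10% ± 1.79 (SD, n = 4) in F46A. Its offset 26, chr1:18538050, read 20.3, 1.25, 7.03 and 3.52% as means in the same order. At chr17:81683974, offset 0 of a copy within Slc8a1, the gene of a sodium-calcium exchanger, the means were 22.7, 0.793, 7.41 and 2.28%, and at its offset 26, chr17:81684000, 16.2, 0.753, 5.88 and 3.65%. At chr11:45770734 and chr4:17409310, both offset 0 and in no annotated gene, the wtJ1 means were 23.2 and 22.5%, and the F46A means 2.63 and 3.06%. F46A was higher at offset 26 than at offset 0 in 4 of the 5 deepest runs by mean, the exception being chr11:45770760 with 2.36%.

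Some copies departed from the typical values in size. Taking 1 site per copy, the highest wtJ1 levels among members with at least 30 calls per library were at chr1:150233163 (offset 26, 54.5% ± 7.99, SD, n = 3), chr6:18586431 (offset 26, 47.5% ± 1.51, SD, n = 3) and chr13:62420030 (offset 0, 44.0% ± 11.8, SD, n = 3). In Uhrf1 KO these 3 CpGs had 0.821, 1.20 and 0.923%, inside the 10th to 90th percentile of all members at their offset. In H730A they had 20.9, 19.5 and 9.15%, and in F46A 7.39, 9.38 and 5.51%. The fall at chr13:62420030 in H730A, -35.8 points (adjusted p = 6.53e-05), was the largest of the named H730A differences, and that at chr1:150233163 in F46A, -48.9 points (8.97e-06), the largest of the named F46A differences. The other large falls were at offset 0 of copies in no annotated gene. At chr17:39992734 the means were 43.3% in wtJ1, 11.9% in H730A and 2.42% in F46A, and at chr8:52306886 they were 40.2, 12.4 and 4.34%. On chromosome 2, chr2:23940078 and chr2:23939133 belong to neighbouring copies and had 43.1 and 42.2% in wtJ1 and 2.49 and 1.70% in F46A. All these sites were chosen for a high wtJ1 level or a large fall among called members. Their wtJ1 levels, falls and p-values are therefore partly how they were picked.

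The largest differences between the mutants that are described here were at copies where H730A kept unusually much. At chr1:150233137, offset 0 of the copy just named, H730A had 27.5% ± 7.25 (SD, n = 4) and F46A 3.84% ± 1.80 (SD, n = 4), where wtJ1 had 50.7% and Uhrf1 KO 2.25%. The difference, from summed calls, was -23.5 points with an adjusted p of 0.0247. At chr3:91126990, offset 26 of a copy in no annotated gene, H730A had 25.2% ± 5.14 (SD, n = 4) and F46A 5.67% ± 3.73 (SD, n = 4), a difference of -19.6 points (adjusted p = 0.0315). There H730A did not pass the test against wtJ1, which had 28.6% (difference -3.75 points, adjusted p = 0.400), while Uhrf1 KO had 1.55%.

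At chr17:39992760, offset 26 of another copy in no annotated gene, the level was 19.7% in H730A and 5.22% in F46A (-14.7 points, adjusted p = 0.0361). These copies had 46 to 94 calls per library in the mutants and were ranked by the difference itself, so their size is partly how they were picked.

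Within genes, the order of the genotype means was the same at the 1 copy within the span of both Snrpn, an imprinted gene of the small ribonucleoprotein family, and Snhg14, an overlapping non-coding RNA host gene, on chromosome 7 (60162996 to 60163138). Offset 0 there had 22.4% ± 1.21 (SD, n = 3) in wtJ1, 1.44% ± 0.275 (SD, n = 3) in Uhrf1 KO, 7.92% ± 2.48 (SD, n = 4) in H730A and 3.23% ± 0.933 (SD, n = 4) in F46A. On the X chromosome, the copy within Il1rapl1, which encodes a synaptic interleukin receptor accessory-like protein, had 20.0, 0.755, 7.65 and 2.63% at offset 0 as means in that order and 13.3, 1.19, 3.93 and 2.75% at offset 26. The 2 copies within F8, the gene of coagulation factor VIII, had 24.7, 1.08, 7.71 and 2.24% at offset 0 and 20.2, 0.959, 6.49 and 3.14% at offset 26. In each of these genes Uhrf1 KO was near 1% and H730A was higher than F46A by mean.

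Classes of copies had close levels, given here side by side with no test. The 72 runs on the X chromosome had mean levels at offset 0 of 23.8, 1.09, 7.69 and 2.68% in wtJ1, Uhrf1 KO, H730A and F46A in that order, and the 444 autosomal runs 23.3, 1.08, 7.40 and 2.63%. Offset 0 in the 137 runs within the span of annotated genes had 23.2, 1.05, 7.15 and 2.50%, and in the 379 runs outside them 23.5, 1.09, 7.55 and 2.69%. By depth, the 172 shallowest runs had 25.0, 1.20, 7.98 and 2.74% and the 172 deepest runs 22.8, 1.05, 7.24 and 2.61%. In the 61 runs without a CpG at offset 26, offset 0 had 24.4, 1.12, 7.36 and 2.71%.

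The presence of a neighbouring CpG went with the wtJ1 level at offset 26 more than with the knockout level. Where offset 21 held a CpG, wtJ1 had 17.8% ± 0.342 (SD, n = 3) at offset 26, and Uhrf1 KO had 0.945% ± 0.0163 (SD, n = 3). In the 56 sites whose run had none at offset 21, wtJ1 had 13.7% ± 0.111 (SD, n = 3) and Uhrf1 KO 0.83% ± 0.104 (SD, n = 3). H730A had 6.14 and 5.19%, and F46A 3.08 and 2.45%, with and without that neighbour. As percent of wtJ1 these were 34.5 and 37.9% in H730A and 17.3 and 17.9% in F46A. These are values side by side, with no test.

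At the edges of the selection the values, given with no test, were as follows. The 5 offset 0 sites whose shallowest library had exactly 10 calls had 2.05% in Uhrf1 KO, 8 of 390 calls, and the 29 sites just outside, with 8 or 9 calls, had 1.06%, 20 of 1892 calls. Runs 1 bp shorter had 1.06% at offset 0 (9 sites) and 0.634% at offset 26 (4 sites) in Uhrf1 KO. Runs 1 bp longer had 0.793 and 0.640% at 3 sites each.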

How the data were processed

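Genomic DNA was bisulfite converted, a LINE1 amplicon was made by PCR and sequenced, per the labels' protocols. Per the file headers, each deposited file gives for 1 library the count of C calls and of C plus T calls per CpG, and their ratio as a fraction. The submitters' processing notes name Trim Galore 0.3.1, BSMAP 2.90, methylKit and mm10, without roles. Counts were used as deposited, at sites with at least 10 calls in all 16 libraries. The members, lists and named sites were chosen with earlier results of these data known.

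Levels are summed C calls over summed calls per library. Genotypes were compared by exact two-sided permutation tests, with Benjamini-Hochberg adjustment over 6 level, 3 relative and 3 ratio tests, and 95% intervals by inverting the test. Contrasts with Uhrf1 KO were not tested. Single sites were fitted by a quasi-binomial model with dispersion moderated by limma 3.58.1 (R 4.3.3) and held at 1 or above, with adjustment over 10185 sites. This model was first tested on simulated calls drawn without spread between libraries, so that trial does not bear on such spread. Named sites were both offsets of the 5 deepest runs, the 4 largest differences per contrast among called members with at least 30 calls per library and no overlap, 1 per run, and the 3 highest in wtJ1 and in H730A. Genes came from RefSeq spans on GRCm38.p6. Exons, introns and UTRs were not annotated. For genes, 3 from a set list and those with most calls were named. Of the named sites and genes, 1 each is not reported here.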

Additional observations from a re-analysis of the deposited data

Results flagged for a closer look

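3 values lay apart from the other libraries of their genotype, among 16 groups of 4 libraries examined by the gap to the nearest library divided by the range, which chance alone marks in about 1 of 20 groups. H730A replicate 4 was the lowest H730A library at both CpGs, with 6.77% at offset 0 (gap 0.975 of the range) and 5.34% at offset 26 (0.901 of the range). Its level at the other CpGs, 6.85%, was also the lowest of the H730A libraries, and its ratio of members to other CpGs was 0.886. In wtJ1, replicate 3 had the highest ratio of members to other CpGs, 0.771, against 0.755 to 0.758 in the other libraries (gap 0.849 of the range). The 4 wtJ1 libraries lie close together, so this gap is small in size.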

How the results depend on the processing

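All differences in level, in relative level and in the ratio of the 2 CpGs kept their direction under every setting run, which included minimums of 30 and 100 calls, unweighted means, single strands, only runs with both offsets, no 10 deepest runs, and each library left out. With wtJ1 replicates 1 and 2 averaged, p could not go below 0.0571: offset 0 differed from wtJ1 by -15.9 (H730A) and -20.7 points (F46A), offset 26 by -11.3 and -14.3, the relative level in F46A by -0.76, and the ratio by 0.13 and 0.62. The same holds when any library is left out. Offset 0 then ranged from -16.0 to -15.6 (H730A minus wtJ1), -21.0 to -20.2 (F46A minus wtJ1) and -5.17 to -4.43 points (F46A minus H730A). Offset 26 ranged from -11.3 to -11.0, -14.6 to -13.8 and -3.38 to -2.57 points. The relative level ranged from 0.14 to 0.24, -0.97 to -0.60 and -1.15 to -0.78, and the ratio from 0.12 to 0.14, 0.59 to 0.64 and 0.46 to 0.51, in the same order.

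No pairing of libraries by replicate number was seen: deviations of same-numbered libraries correlated from -0.07 to 0.08, beside -0.23 to 0.14 for other pairs. These deviations also hold counting noise, so the check could miss a weak pairing. In 24 comparisons of a library with another genotype, Uhrf1 KO left out, its own number was the best match in 7. With the replicate number as a block the smallest p is 0.125, so no test could pass. The differences were then -15.8, -20.6 and -4.80 points at offset 0, -11.2, -14.2 and -3.02 points at offset 26, -0.76 and -0.93 for the relative level in F46A against wtJ1 and H730A, and 0.13, 0.62 and 0.49 for the ratio.

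Among added scales, log2 odds gave 0.28 for H730A minus wtJ1 (exact permutation p = 0.0286), and offset 26 alone gave -0.43 and -0.68 for F46A against wtJ1 and H730A. For H730A minus wtJ1 offset 26 alone gave 0.25 (exact permutation p = 0.0286, adjusted 0.0857). Member counts at a minimum of 100 calls were 183 of 183 for both mutants against wtJ1, as fewer sites were tested, where 99.8% (H730A) and 99.6% (F46A) of all sites were called. Left-out libraries gave 846 to 858 in H730A (87.1 to 88.4%, against 87.2 to 89.5% of all sites) and 947 to 954 in F46A (97.5 to 98.2%, against 92.4 to 93.7%). For F46A minus H730A the count was 0 by limma (0.0196% of all sites called), 356 by Fisher's exact test (13.5% of all), 212 of 759 at a minimum of 30 calls (9.57%), 214 in 1 fit of 16 libraries (6.86%), 0 with the replicate block (0 of all; 344 members at an unadjusted p under 0.05, or 35.4%, against 12.1% of all), and 0 to 54 with a library left out (0 to 1.35% of all). The cause was not tested.

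Depth limits the single sites, since many members have under 100 calls in their shallowest library. Conversion and the placement of reads among copies could not be checked.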
